A study of Mus musculus with 13 samples.

Results

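Aminoacyl-tRNA synthetases are the enzymes that join each amino acid to its transfer RNA. The genes described here are those whose symbols follow the pattern of 1 letter for the amino acid, then ars and an optional 1 or 2, together with *Eprs*, *Farsa* and *Farsb*. Of 17097 genes with an array probe set naming only that gene, 32 met this rule, and each was read from the probe set with the highest mean. A symbol ending in 2 was taken as mitochondrial, which gave 17 cytosolic and 15 mitochondrial synthetase genes. Synthetase genes without such a probe set in the name table were not analysed here.

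Charged tRNAs are the substrate of every ribosome, and cells run separate sets of synthetases in the cytosol and in mitochondria, most of them encoded in the nucleus by separate genes. *Gars* and *Kars* are exceptions, since each gives both a cytosolic and a mitochondrial enzyme. In mammals several cytosolic synthetases (here *Eprs*, *Iars*, *Lars*, *Mars1*, *Qars*, *Rars* and *Kars*) sit together in the multisynthetase complex, held by scaffold proteins. In the small intestine, dividing crypt cells that start from Lgr5+ stem cells give rise to the non-dividing cells of the villus, and Lgr5 also marks stem cells of the hair follicle.

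All cells came from C57BL/6 mice with the knock-in allele Lgr5-EGFP-ires-CreERT2, in which the *Lgr5* promoter drives GFP. Within the intestine GFP level was read as standing for *Lgr5* expression, and every group carries the allele. RNA was hybridised to 13 Affymetrix HT MG-430 PM arrays: 4 of intestinal cells sorted for bright GFP (GFP_High), 3 of intestinal cells sorted for dim GFP (GFP_Low), 3 of villus epithelium (Villus) and 3 of sorted hair follicle cells with dim GFP (hair bulge). The labels give 3 mice per sort and no ages, and the sources differ on whether Villus cells were sorted, since the methods state FACS for the RNA of every group and name no Villus gate, while the results take these cells from the whole villus epithelium. One label field names a GFP level opposite to the title for GFP_High 2, GFP_Low 2 and GFP_Low 3, and a high level for Villus and hair bulge, so groups follow titles and source names, and arrays are numbered in order of deposition within a group.

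*Lgr5* had a mean intensity of 649.8 in GFP_High, 30.9 in GFP_Low, 6.07 in Villus and 568.5 in hair bulge. Dim GFP thus went with a far higher *Lgr5* level in hair bulge than in GFP_Low. The level of probe sets without signal, taken as the 95th percentile of 86 olfactory, vomeronasal and taste receptor probe sets, was an intensity of 7.9 and is called the receptor level, so Villus *Lgr5* lay below it. The summed intensity of 8 enterocyte markers was 56790 to 58850 in Villus and 2589 to 3725 in GFP_High, and that of 9 hair follicle markers was 23760 to 29290 in hair bulge and at most 1090 elsewhere. Hair bulge 2 stood apart in dividing-cell genes, with a summed intensity of 14 mitosis genes of 1408 against 299.9 and 135.6 in the other hair bulge arrays. GFP_Low 1 had the lowest 75th percentile of all probe sets, 37.6 against 40.6 to 52.1. In bulk RNA, fewer cells of a type and less RNA per cell cannot be told apart, and p-values measure the spread between these arrays.

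By the mean of log2 intensities, GFP_High was highest for 24 of the 32 genes, including all 15 mitochondrial ones, and GFP_Low for the other 8, all cytosolic. On the linear scale *Cars2* and *Fars2* did not keep this order, with means of 58.4 in hair bulge and 58.2 in GFP_High for *Cars2* and of 15.4 in GFP_Low and 14.9 in GFP_High for *Fars2*. Villus had the lowest mean log2 for 19 genes and hair bulge for 13. All group means lay above the receptor level except those of *Mars2*, the mitochondrial methionine enzyme, in GFP_Low, Villus and hair bulge, and of *Fars2*, the mitochondrial phenylalanine enzyme, in hair bulge. Differences below are log2 ratios from limma fitted to all 13 arrays, and genes were called when the p adjusted over the 17097 genes (Benjamini-Hochberg) was under 0.05.

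**Figure D1:**
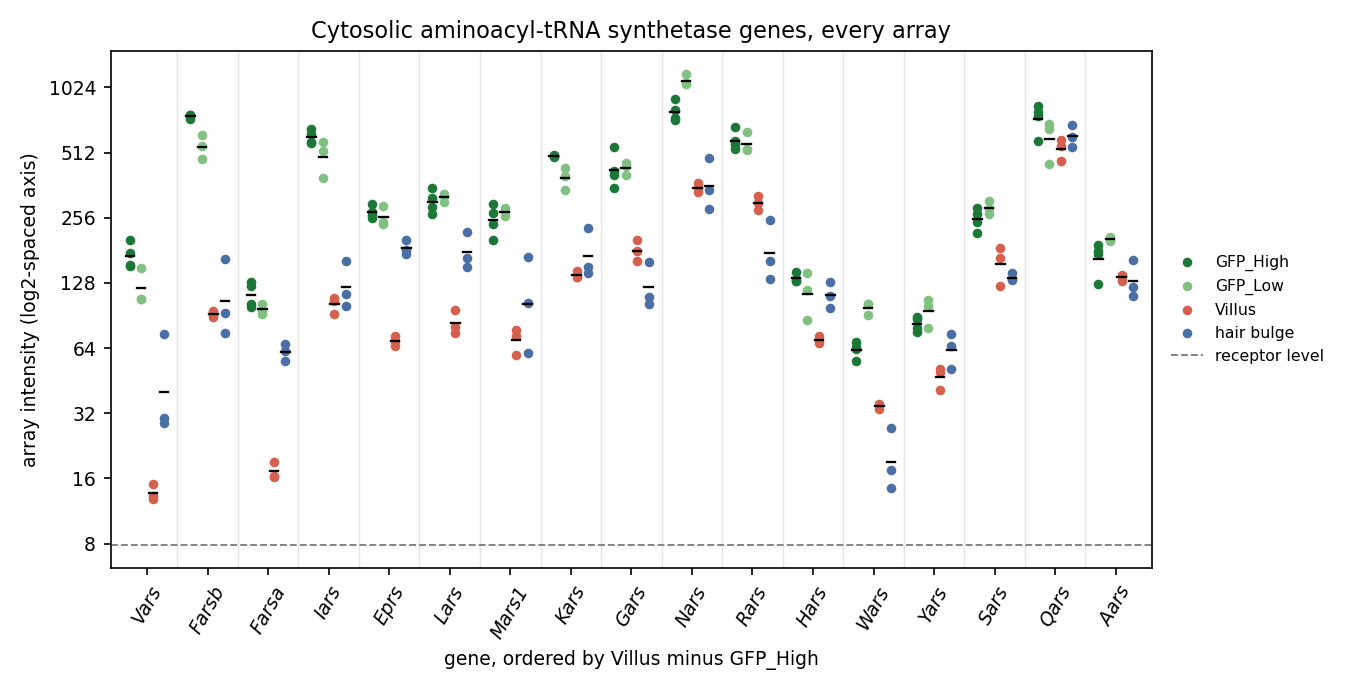
Intensity of the 17 cytosolic synthetase genes in every array, on a log2-spaced axis, with genes ordered by their Villus minus GFP_High difference. Points are arrays, black bars are means of the log2 values and a dashed line marks the receptor level, 7.9. Vars, at the left, lies at 153 to 203 in GFP_High and at 12.8 to 15.1 in Villus, while Qars and Aars, at the right, overlap between these groups.

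The step from bright to dim GFP left most synthetase genes without a call. Of the 32 genes, 1 was called higher in GFP_Low and 1 lower, where 6.32% of all genes were called higher and 10.4% lower. With an unadjusted limma p under 0.05, 7 of the 32 passed, a share that was not counted over all genes. The median difference was -0.05 for cytosolic, -0.24 for mitochondrial and -0.04 for all genes. All 15 mitochondrial differences were below 0, against 9 of 17 cytosolic ones.

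*Wars*, which charges the tryptophan tRNA in the cytosol and is known as an interferon-inducible gene, was at 55.8, 64.8, 67.9 and 63.6 in GFP_High and at 102, 102 and 91.3 in GFP_Low. The GFP_Low arrays all lay above the GFP_High arrays. The difference was 0.65 (standard error 0.17, limma adjusted p = 0.0208), and it lost the call without GFP_High 1, GFP_Low 1 or GFP_Low 2. Its other probe sets gave 0.59 and 0.60.

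*Pars2*, the mitochondrial proline enzyme, went the other way, at 36.0, 51.8, 37.6 and 32.5 in GFP_High and 20.9, 27.6 and 22.6 in GFP_Low. Again the groups did not overlap. The log2 difference was -0.72 (standard error 0.16, limma adjusted p = 0.00712), or 1.65-fold, and the gene was called with each single array left out in turn but not under the methods' t-test. *Nars*, the asparagine enzyme, was at 793.1 ± 86.1 (SD, n = 4) in GFP_High and 1101 ± 65.8 (SD, n = 3) in GFP_Low, without overlap, and missed the threshold (difference 0.48, limma adjusted p = 0.0584). Without hair bulge 2, whose spread enters the shared variance, 7 synthetase genes were called, with *Nars* and *Wars* higher and *Pars2*, *Farsb*, *Vars*, *Tars2* and *Kars* lower.

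GFP_Low 1 carried the lowest intensity of its group for 14 of the 15 mitochondrial genes and for 7 of the 17 cytosolic genes. The mitochondrial genes averaged 0.03 in GFP_Low 1, as log2 centred on each gene's mean, against 0.54 and 0.48 in the other GFP_Low arrays and 0.55 to 0.72 in GFP_High. Without GFP_Low 1 the median difference was -0.11 for mitochondrial genes and -0.002 for cytosolic genes, and *Pars2* alone was called. Markers of other cell types moved with the sort: 6 of 6 goblet cell markers (summed intensity 25570 to 29580 in GFP_Low and 1585 to 2947 in GFP_High), 9 of 9 enteroendocrine markers (8035 to 9291 and 215.2 to 449.7), 2 of 3 Paneth cell markers (5025 to 9240 and 711.4 to 1438) and 8 of 8 enterocyte markers were higher in GFP_Low. In GFP_High, *Sst* and *Ghrl* of these were not above the receptor level. Their part in the synthetase values was not tested.

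**Figure D2:**
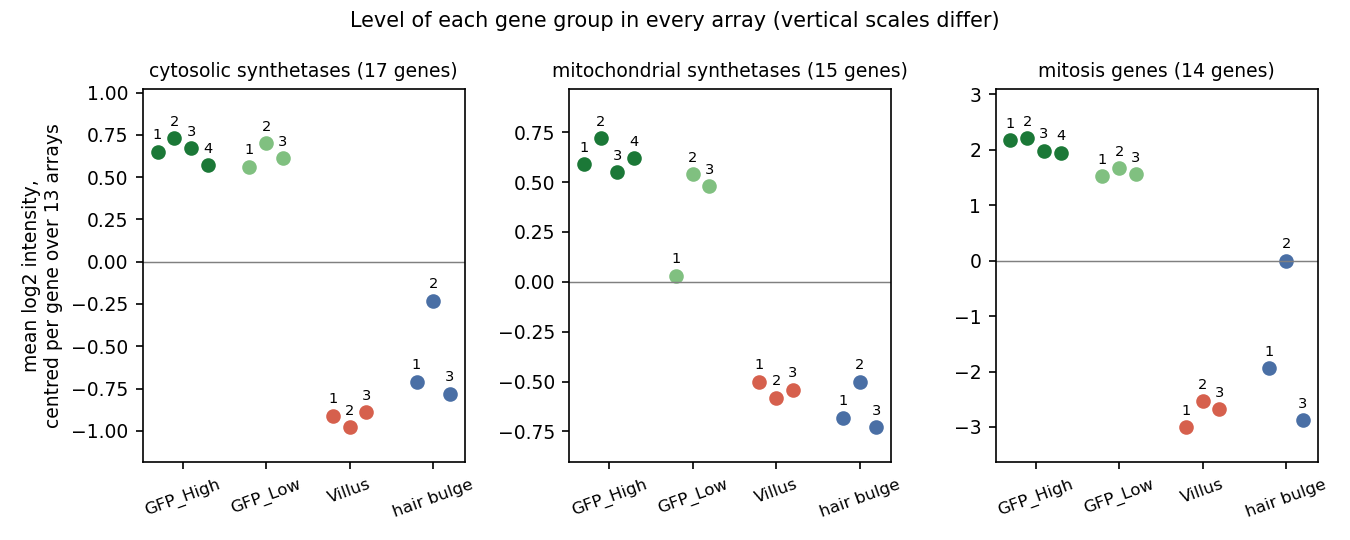
Mean log2 intensity, centred per gene over the 13 arrays, of the 17 cytosolic and 15 mitochondrial synthetase genes and of 14 mitosis genes, with 1 point per array labelled by its number. GFP_Low 1 lies at 0.03 for mitochondrial genes, below the other crypt arrays, and hair bulge 2 lies at -0.23 for cytosolic genes and 0.00 for mitosis genes, above the other hair bulge arrays.

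Villus cells had lower synthetase RNA than either crypt group. Against GFP_High, 30 of 32 genes were called lower and 0 higher (26.3% of all genes were called lower and 22.6% higher). The exceptions were *Aars*, the alanine enzyme, and *Fars2*. The other probe set of *Aars* was called lower (-0.47, limma adjusted p = 0.014), as was the mean of its probe sets (-0.38, limma adjusted p = 0.028). The median difference was -1.23 for the 17 cytosolic and -1.01 for the 15 mitochondrial genes, against 0.02 for all genes. For 29 of the 32 genes no Villus array reached the lowest GFP_High array, a share that was not counted over all genes. Against GFP_Low, 28 genes were called lower and 0 higher (21.3% and 20.8% of all genes), with medians of -1.51 and -0.66. Both comparisons share the Villus arrays. No array left out brought the counts under 29 and 24.

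The widest gap was that of *Vars*, the cytosolic valine enzyme. Its intensity was 177, 203, 155 and 153 in GFP_High, 108, 150.3 and 108 in GFP_Low, and 12.8, 15.1 and 13.3 in Villus. Every Villus array lay under every crypt array. The Villus value was 12.5-fold below GFP_High (log2 -3.64, standard error 0.27, limma adjusted p = 4.14e-08).

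Phenylalanine is charged in the cytosol by an enzyme of paired subunits, alpha from *Farsa* and beta from *Farsb*. *Farsb* was at 762, 733, 760.1 and 758 in GFP_High, 477, 619.6 and 549 in GFP_Low, and 95.1, 89.1 and 91.3 in Villus. *Farsa* was at 123, 129.8, 102 and 98.9 in GFP_High, 92.1, 102 and 95.5 in GFP_Low, and 16.3, 19.1 and 16.4 in Villus. With these probe sets the Villus arrays of both genes lay together and far under the crypt arrays. Villus minus GFP_High was -3.04 for *Farsb* (standard error 0.20, limma adjusted p = 1.58e-08) and -2.71 for *Farsa* (standard error 0.13, limma adjusted p = 4.46e-10). The other probe sets, brightest first, gave -2.76 and -1.35 for *Farsb*. Those of *Farsa*, which were dim, gave -0.57 (limma adjusted p = 0.0618) and -0.21 (limma adjusted p = 0.364).

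*Iars*, the isoleucine enzyme of the multisynthetase complex, was at 621, 571, 658 and 567 in GFP_High, 389, 574 and 520.0 in GFP_Low, and 109, 106 and 92.0 in Villus. The Villus arrays were again apart from the rest of the intestine, with a difference of -2.57 from GFP_High (standard error 0.17, limma adjusted p = 1.4e-08). All 7 genes of the complex were called lower in Villus than in GFP_High, with a median difference of -1.84, and of the 10 other cytosolic genes 9 were, with a median of -1.06. Whether the complex differs from the other genes was not tested. Its scaffold genes followed: *Aimp1*, *Aimp2* and *Eef1e1* were 3 of 3 lower, at -1.16, -1.43 and -2.31.

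*Qars*, the glutamine enzyme and also a member of the complex, had the highest mean of the 32 probe sets and moved least among the called genes. It was at 791, 753, 576 and 838 in GFP_High, 452, 656 and 697 in GFP_Low, and 582, 468 and 549 in Villus. The arrays of the groups overlapped. The difference from GFP_High was -0.46 (standard error 0.17, limma adjusted p = 0.0395), and the call was lost on leaving out any of 5 arrays (GFP_High 1, 2 or 4, Villus 2 or 3) or on averaging all probe sets (-0.23, limma adjusted p = 0.14). The other probe sets of *Qars*, brightest first, gave -0.60 (limma adjusted p = 0.00424), -0.12 and 0.27, the last 2 not called.

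With the probe sets used, the largest mitochondrial differences between Villus and GFP_High were those of *Iars2* (-1.97), *Ears2* (-1.71) and *Nars2* (-1.66), the isoleucine, glutamate and asparagine enzymes. Other probe sets above the receptor level gave -0.83 for *Iars2*, and -0.27 (not called) and -1.05 for *Ears2*. The other probe set of *Vars2* gave -1.78, so this order depends on the probe set. *Mars2* was lower in Villus, but with Villus not above the receptor level its fold is only bounded, at least 1.12-fold. Where both compartments have a gene for the same amino acid, 13 of 14 pairs could be set side by side, the methionine pair being left out because *Mars2* is only bounded. The cytosolic gene had the lower value in 9 of them, as for valine (-3.64 for *Vars* and -1.01 for *Vars2*) and leucine (-1.87 for *Lars* and -0.95 for *Lars2*). Some genes enter more than 1 pair, since *Fars2* stands against both *Farsa* and *Farsb*, and *Eprs* against both *Ears2* and *Pars2*. In each of these pairs the cytosolic gene had the lower value. For alanine, asparagine, serine and tryptophan the mitochondrial gene had the lower value, as for tryptophan (-0.86 for *Wars* and -1.42 for *Wars2*). Differences within pairs were not tested.

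**Figure D3:**
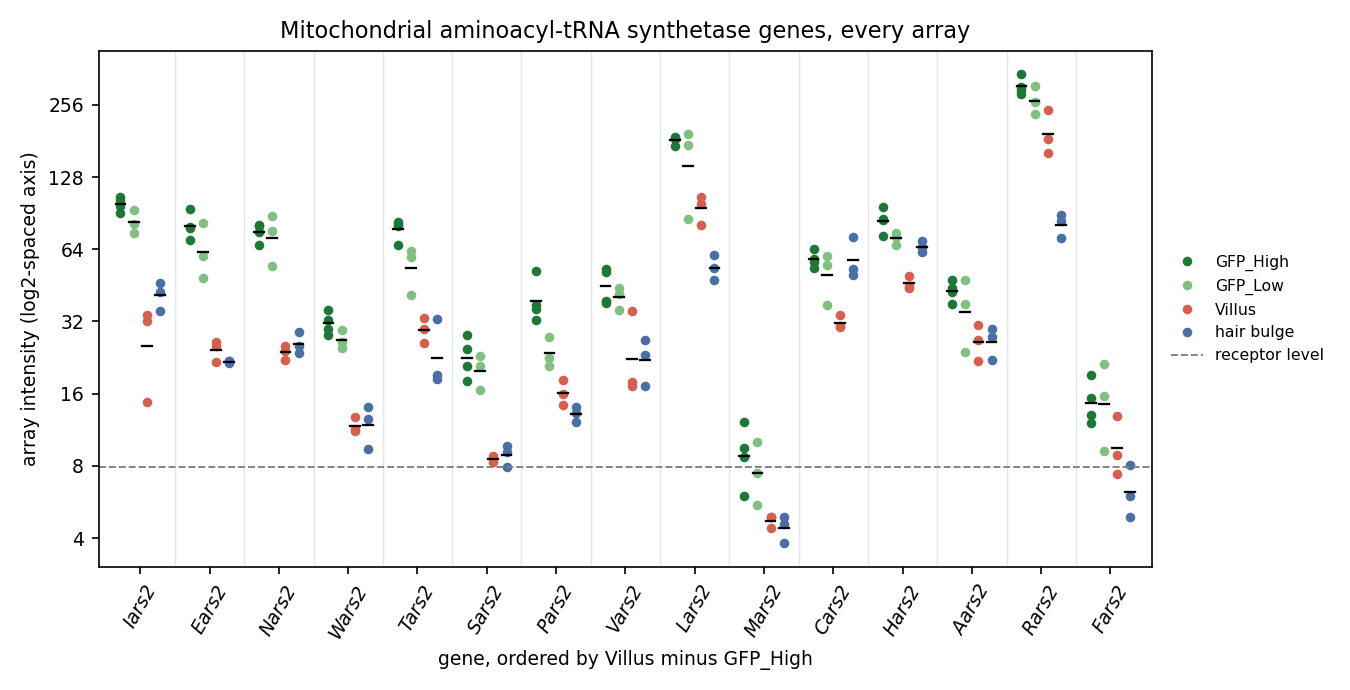
Intensity of the 15 mitochondrial synthetase genes in every array, on a log2-spaced axis, drawn as for the cytosolic genes. Iars2 and Ears2, at the left, show Villus arrays well under the GFP_High arrays, Mars2 lies under the receptor level of 7.9 in Villus and hair bulge, and Cars2 has hair bulge arrays among the GFP_High arrays.

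Other cells and signals moved with the Villus arrays. Of 10 T lymphocyte and leukocyte markers 9 were higher there, with a summed intensity of 1803 to 2654 against 55.1 to 69.9 in all other arrays, where all but *Cd3e* were not above the receptor level, and *Cd2* was not above it in Villus either. All 15 interferon response genes measured were higher in Villus than in GFP_High, with summed intensities of 5094 to 6378 and 1766 to 2454. *Wars* was at 35.4, 35.0 and 33.3 in Villus, below every crypt array (log2 -0.86 from GFP_High, standard error 0.17, limma adjusted p = 0.000741). Its other probe sets, brightest first, gave -0.79 (limma adjusted p = 0.0116) and 0.13 (limma adjusted p = 0.564). Mitosis genes were lower in 14 of 14, with a summed intensity of 138.9 to 198.3 in Villus and 5359 to 6243 in GFP_High, and 7 of them, *Plk1* among them, were not above the receptor level in Villus. Of 4 acinar pancreas markers 2 were higher in Villus than in GFP_High, with summed intensities of 136.2 to 3857 and 80.3 to 95.2. The Villus median was 154.1, so the high value came from a single array. The part of these lists in the synthetase values was not tested.

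Hair bulge cells share *Lgr5* expression with GFP_High cells, and their synthetase RNA was lower too. Of 32 genes 28 were called lower than in GFP_High and 0 higher (29.1% and 19.4% of all genes), 14 in each compartment. *Aars*, *Qars*, *Hars* and *Cars2* were not called. The other probe sets of *Qars*, brightest first, gave -0.50 (limma adjusted p = 0.0138), -0.31 and 0.45, the last 2 not called. The median difference was -1.13 for cytosolic, -1.35 for mitochondrial and -0.06 for all genes. Against GFP_Low, 27 were called lower and 0 higher (25.2% and 21% of all genes), with medians of -1.19 and -1.17. Without hair bulge 2 the counts were 29 and 27.

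*Farsb* was at 93.2, 166 and 75.1 in hair bulge, *Iars* at 100.4, 161 and 114 and *Vars* at 30.3, 74.4 and 28.8. All lay below the GFP_High and GFP_Low arrays given above, and hair bulge 2 was the highest of each trio. The log2 difference from GFP_High was -2.84 for *Farsb* (standard error 0.20, limma adjusted p = 3.3e-08), -2.30 for *Iars* (standard error 0.17, limma adjusted p = 4.65e-08) and -2.09 for *Vars* (standard error 0.27, limma adjusted p = 1.31e-05).

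*Rars2*, the mitochondrial arginine enzyme, was at 284, 343, 302 and 295 in GFP_High, 235, 262 and 307 in GFP_Low, 184, 162 and 244 in Villus, and 71.4, 83.7 and 88.5 in hair bulge. Hair bulge arrays lay well under all intestinal arrays, Villus included. Its difference from GFP_High was -1.92 (standard error 0.15, limma adjusted p = 1.01e-07). *Fars2* was not above the receptor level in hair bulge, and its difference from GFP_High is bounded, at least 1.86-fold lower (limma adjusted p = 0.00179). *Cars2*, the mitochondrial cysteine enzyme, had a mean of 58.4 in hair bulge and 58.2 in GFP_High, and its difference of -0.01 became 0.36, a call in the opposite direction, once the arrays were quantile normalised.

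*Gars*, the glycine enzyme, was at 422, 544, 350.4 and 402 in GFP_High, 445, 404 and 459.6 in GFP_Low, 203, 162 and 179 in Villus, and 110.4, 160.0 and 103 in hair bulge. The crypt groups overlapped, and Villus and hair bulge were below them. Between hair bulge and GFP_Low the difference was -1.84 (standard error 0.19, limma adjusted p = 1.33e-06). *Wars*, at 14.4, 27.3 and 17.4 in hair bulge, was 5.18-fold below GFP_Low (limma adjusted p = 8.97e-08).

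**Figure D4:**
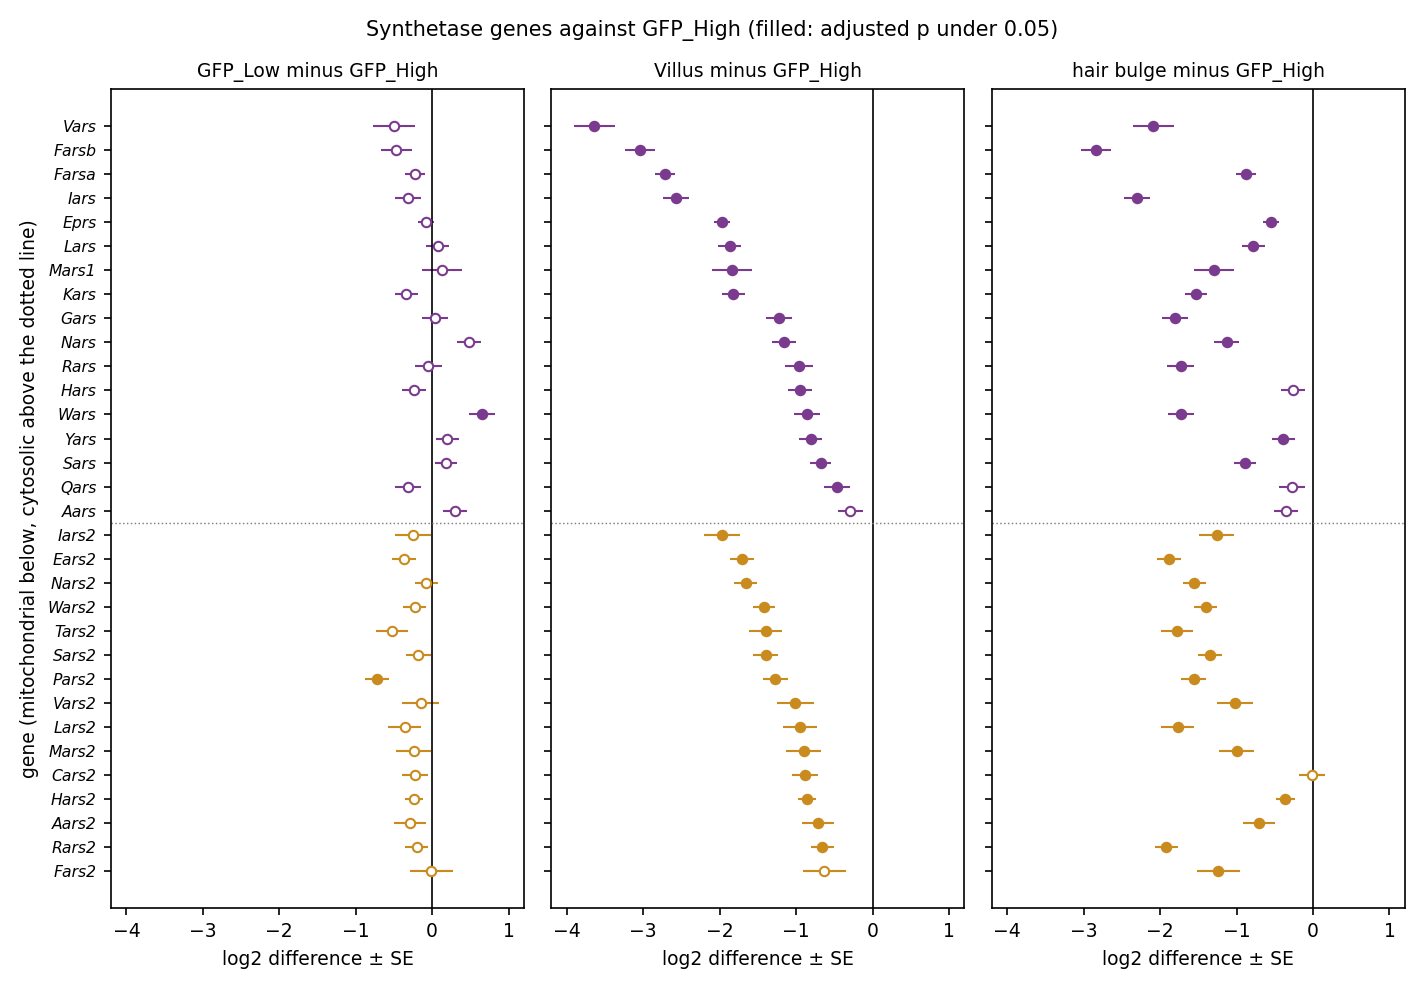
Log2 difference from GFP_High, with its standard error from limma, of each synthetase gene in GFP_Low, Villus and hair bulge. Filled points passed an adjusted p of 0.05. The filled points are Wars and Pars2 in GFP_Low, 30 of 32 genes in Villus and 28 of 32 in hair bulge, with Vars at -3.64 and Cars2 at -0.01 among the extremes.

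Villus and hair bulge, both low in synthetase RNA, were also compared directly. Between them 9 synthetase genes were called higher in hair bulge and 5 lower (26.9% and 27.4% of all genes), 6 and 3 of them cytosolic, and the medians were 0.27 for cytosolic, -0.01 for mitochondrial and -0.04 for all genes. Without hair bulge 2 the counts were 7 and 6, and the cytosolic median was 0.08.

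*Farsa* was at 66.7, 55.9 and 62.0 in hair bulge against the 16.3 to 19.1 of Villus, 3.56-fold higher (log2 1.83, standard error 0.14, limma adjusted p = 3.13e-08). The arrays did not overlap. Its partner subunit *Farsb* differed by 0.19 (limma adjusted p = 0.49), with overlapping arrays. With the probe sets used, the alpha and beta subunits of the phenylalanine enzyme were both low in Villus. Hair bulge minus GFP_High was -0.88 for *Farsa* and -2.84 for *Farsb*. The other probe sets of *Farsa*, which were dim, gave 0.82 and 0.33 for hair bulge minus Villus and 0.24 and 0.12 for hair bulge minus GFP_High. With the mean of all probe sets *Farsa* was no longer called between hair bulge and GFP_High (-0.17, limma adjusted p = 0.295) or GFP_Low (-0.03, limma adjusted p = 0.887). The brighter of the other probe sets of *Farsb* gave -3.17 for hair bulge minus GFP_High.

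*Eprs*, the fused glutamate and proline enzyme of the complex, was at 257, 263, 297 and 272 in GFP_High, 289.6, 246 and 239.6 in GFP_Low, 69.3, 65.5 and 73.1 in Villus, and 175, 182 and 202 in hair bulge. With this probe set the hair bulge arrays lay between the crypt arrays and those of Villus, without overlap. The difference from Villus was 1.43 (standard error 0.12, limma adjusted p = 1.11e-07). Against GFP_High, hair bulge was at -0.55 with it, at -0.26 and -0.06 with the other probe sets above the receptor level, and at -0.006 with the mean of all probe sets, where the calls against both crypt groups were lost (limma adjusted p = 0.976 for GFP_High and 0.961 for GFP_Low). *Vars* was also higher in hair bulge than in Villus, by 1.55 (standard error 0.29, limma adjusted p = 0.000314).

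Genes lower in hair bulge than in Villus were *Rars2* (-1.26), *Wars* (-0.86), *Lars2* (-0.82), *Rars* (-0.77) and *Gars* (-0.57). The *Gars* call was lost after quantile normalisation (-0.33, limma adjusted p = 0.141), without Villus 1, hair bulge 1 or hair bulge 3, and, like those of *Wars*, *Rars* and *Vars* between these groups, under the methods' t-test. *Rars*, the cytosolic arginine enzyme, was at 532, 579, 668 and 554 in GFP_High, 524, 636 and 529.7 in GFP_Low, 298, 278 and 323 in Villus, and 162, 249.5 and 134 in hair bulge. *Lars2*, the mitochondrial leucine enzyme, was at 189, 187, 173 and 184 in GFP_High, 85.7, 174 and 194 in GFP_Low, 99.1, 81.0 and 106 in Villus, and 60.7, 53.4 and 47.8 in hair bulge. For both genes hair bulge lay under Villus without overlap (limma adjusted p = 0.0034 for *Rars* and 0.00957 for *Lars2*). Both arginine enzymes were thus lowest in hair bulge, while *Lars*, the cytosolic leucine enzyme, was higher there than in Villus (1.09, limma adjusted p = 3.62e-05). The histidine pair, whose genes lie beside each other, gave *Hars* at 0.69 and *Hars2* at 0.50 for hair bulge minus Villus. The other probe set of *Hars2* gave -0.43, and with the mean of its probe sets the call was lost (0.037, limma adjusted p = 0.843).

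*Mars2*, the gene with the lowest mean, was at 6.0, 9.5, 12.2 and 8.7 in GFP_High, 5.5, 7.5 and 10.1 in GFP_Low, 4.9, 4.9 and 4.4 in Villus, and 4.6, 4.9 and 3.8 in hair bulge. Only arrays of the crypt groups exceeded the receptor level, and no fold is given between Villus and hair bulge.

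Hair bulge arrays also differed from GFP_High in other genes: 13 of 13 immediate early and heat shock genes were higher than in GFP_High, with a summed intensity of 55730 to 72840 against 10290 to 17080, all above the receptor level. Melanocyte markers were higher in 4 of 7 (750.6 to 964.3 against 59.3 to 80.6), with *Tyr* not above the receptor level. Mitosis genes were lower than in GFP_High in 14 of 14. Hair bulge 2, with the highest mitosis sum of its group, had the highest intensity of its group for 13 of 17 cytosolic and 8 of 15 mitochondrial synthetase genes. The part of these lists in the synthetase values was not tested.

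Genes that act on tRNA next to the synthetases were read from lists that do not overlap with them. Of 23 tRNA processing and modification genes, 22 were lower in Villus and 21 in hair bulge than in GFP_High, with medians of -2.07 and -1.35. The exception in Villus was *Trnt1*, which adds the CCA end of tRNAs (-0.59). *Qtrt1*, a subunit of the enzyme that places queuine in tRNA, went from 229.9 in GFP_High to 11.0 in Villus and 101.5 in hair bulge. In GFP_Low 9 of these 23 were called lower than in GFP_High, among them *Trit1*, which modifies the base beside the anticodon (-0.97, standard error 0.13, limma adjusted p = 0.000149). Whether this share differs from that of the synthetases was not tested.

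RNA polymerase III, which transcribes tRNA genes, had 12 of 17 genes lower and 2 higher in Villus, and 11 lower and 0 higher in hair bulge, both against GFP_High. *Gtf3a*, known as the factor TFIIIA for 5S ribosomal RNA, differed by -2.56 and -1.77. *Maf1*, the repressor of this polymerase, was not called in Villus (0.27) and differed by 0.01 in hair bulge.

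Factors that take charged tRNA to the ribosome were read for each compartment. In the cytosol, 7 of 7 elongation genes were lower in Villus than in GFP_High (median -2.07), 2 were lower in hair bulge (median -0.17), and 7 of 7 were higher in hair bulge than in Villus. *Eef1d*, a subunit of the exchange factor for the tRNA carrier, was at 1800.0 in GFP_High, 290.3 in Villus and 1551 in hair bulge. In mitochondria, 6 of 7 translation factors were lower in Villus (median -1.26) and 7 of 7 in hair bulge (median -1.83), and 4 of 7 were lower in hair bulge than in Villus. *Tufm*, the mitochondrial tRNA carrier, was at 430.6 in GFP_High, 173.7 in Villus and 94.8 in hair bulge.

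Other enzymes that make or proofread aminoacyl-tRNA gave a mixed picture in Villus, with 6 of 10 lower and 2 higher than in GFP_High, and 8 of 10 lower in hair bulge. *Sepsecs*, which makes selenocysteine on its tRNA, was among the higher ones, at 130.1 in GFP_High and 209.6 in Villus, and was at 26.4 in hair bulge. *Pstk*, the kinase that acts just before it, was lower in both, at 139.1, 39.0 and 47.4.

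**Figure D5:**
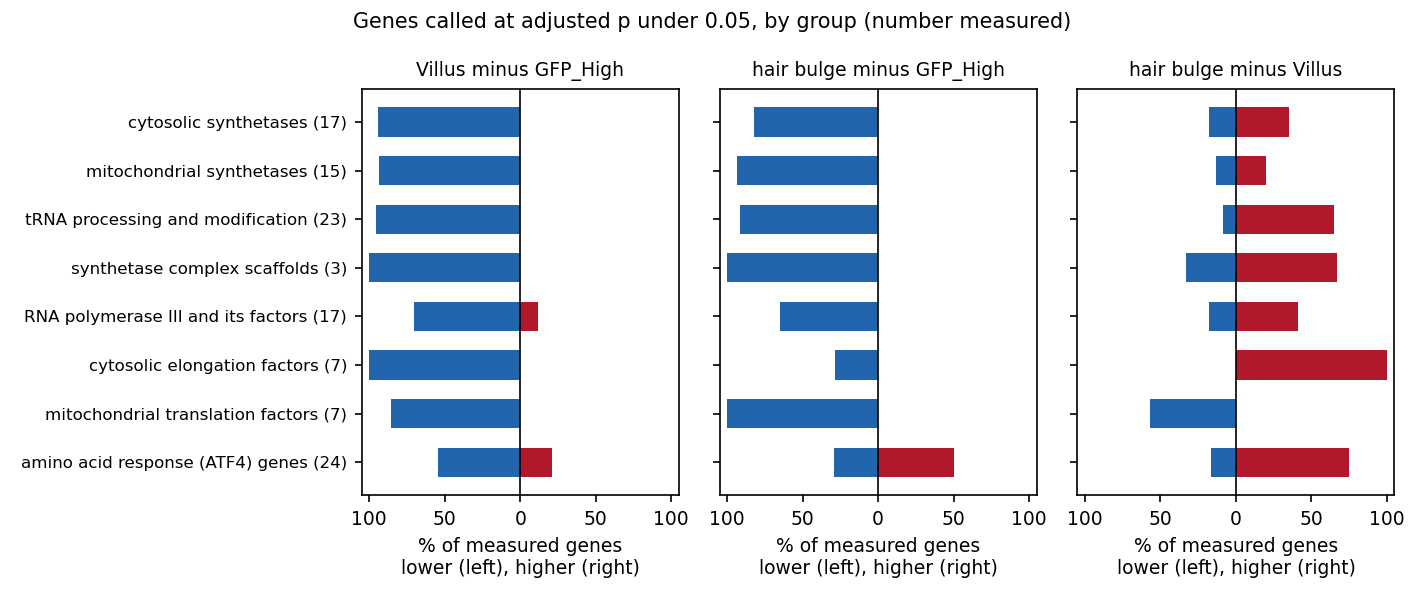
Percentage of the measured genes of each list called lower (left) or higher (right) in Villus minus GFP_High, hair bulge minus GFP_High and hair bulge minus Villus, with the number measured in parentheses. All 7 cytosolic elongation factors lie to the left in Villus minus GFP_High and to the right in hair bulge minus Villus, while 4 of 7 mitochondrial translation factors lie to the left in the latter.

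Several synthetase genes are known targets of ATF4, the transcription factor of the amino acid response, and of Myc, a driver of growth. Promoter sequences of RefSeq (GRCm38.p6, 250 bases before to 50 after each gene start) were held for 24 of the 32 genes, in 25 promoters. The C/EBP-ATF composite element, searched as TGATGNAAN on both strands, was in 16% of these promoters and in 3.95% of all 32851 promoters, and the E-box CACGTG, bound by Myc-type factors, was in 16% and 7.15%. The composite element was found for *Aars*, *Gars*, *Iars* and *Yars* and the E-box for *Aars*, *Ears2*, *Farsb* and *Iars*. Some matches upstream of the gene start are shown in 30-base windows read along the gene strand, because they lie in genes whose values are described above, with the matched bases in capitals. The composite match of *Gars* is on the opposite strand, so it reads as the reverse complement of the searched letters. These windows show where the letters lie and were not tested for binding.
Gars, composite element from position -31, chr6:55037960-55037989, plus strand: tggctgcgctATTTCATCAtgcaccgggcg
Aars, E-box from position -146, chr8:111033684-111033713, plus strand: agtcaaccctgtCACGTGacactccatgtc
Farsb, E-box from position -39, chr1:78488919-78488948, minus strand: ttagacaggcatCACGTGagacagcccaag
Iars, E-box from position -69, chr13:49682049-49682078, plus strand: gaccaatcgccaCACGTGttgtttgtaggt

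The genes with a composite element did not move alike. *Iars* differed by -2.57 between Villus and GFP_High, *Gars* by -1.23 and *Yars*, the tyrosine enzyme, by -0.81. *Aars*, at 167.8 ± 28.6 (SD, n = 4) in GFP_High and 135.6 ± 4.90 (SD, n = 3) in Villus, was not called (limma adjusted p = 0.152). Its other probe set was called, at -0.47 (limma adjusted p = 0.014). *Farsb*, with an E-box and no composite element, differed by -3.04. In hair bulge *Iars* and *Gars* were again lower than in GFP_High, at -2.30 and -1.80, and *Aars* was not called (-0.35).

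Transcripts of the amino acid response itself went in both directions. Of 24 ATF4-linked genes other than synthetases, 13 were lower and 5 higher in Villus than in GFP_High, with *Slc7a5*, a carrier of large neutral amino acids, at 116.6 in GFP_High and 8.53 in Villus. In hair bulge 12 were higher and 7 lower, with *Atf4* RNA at 2947 against 991.3 in GFP_High and *Ddit3* at 395.1 against 54.0. In GFP_Low 3 were higher and 4 lower, with *Nupr1*, a stress-induced gene, at 218.0 against 19.3. *Myc* RNA was at 375.0 in GFP_High, 141.1 in GFP_Low, 13.5 in Villus and 1102 in hair bulge. Both *Myc* and *Atf4* RNA were lower in Villus than in GFP_High (limma adjusted p = 3.98e-09 and 1.43e-05). In hair bulge both were higher than in GFP_High (limma adjusted p = 0.000415 and 1.14e-06). The part of these factors in the synthetase values was not tested.

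Across the 13 arrays most synthetase genes followed the mean of the other genes of their own class, cytosolic or mitochondrial. Pearson correlations ran from 0.474 for *Qars* and 0.475 for *Cars2* to 0.985 for *Kars*. The genes outside the family most like the mean of the cytosolic synthetases, among 10774 above the receptor level, were *Plk1* (0.995), *Mrps26* (0.993), *Mrpl37* (0.992), *Mrps27* (0.992) and *Mrps14* (0.991), a mitotic kinase and 4 proteins of the mitochondrial ribosome. The arrays fall into 4 groups and were normalised together, so these values describe the groups' order and carry no test.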

How the data were processed

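RNA of 13 samples was hybridised to Affymetrix arrays (HT MG-430 PM). The deposited values are linear intensities, for which the authors ran RMA-sketch in Affymetrix Power Tools (version not given in the sources used here), a method that removes background, normalises between arrays and summarises probes to a probe set. A normalisation of this kind sets levels relative to the whole array. Intensities were taken to log2 without further scaling. Of 45141 probe sets, 28898 name a single gene in the platform annotation, 551 name several, and 15692, absent from the name table, were left out. Gene identifiers of 28689 were found in the RefSeq table (GRCm38.p6), with 0 symbols changed. The 32 synthetase genes have 57 probe sets, 16 genes have more than 1, and 2 probe sets that also name another gene were left out. Of 25 other probe sets 20 lay above the receptor level, and 0 of these were called opposite to the one used. Of the 5 below it, 1 of *Eprs* was, at 0.84 in hair bulge minus GFP_High and 0.72 in hair bulge minus GFP_Low.

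Groups were compared with limma 3.58.1 in R 4.3.3 (lmFit and eBayes on all 13 arrays, Benjamini-Hochberg over 17097 genes, threshold 0.05), in place of the methods' t-test, which was run as an alternative. No absolute RNA amounts were measured, and the number of arrays limits the precision. Values in every array are given for the 4 called genes with the largest difference in each comparison (at most 2 mitochondrial), for up to 3 per class called against the majority of their class, and for the genes with the highest and lowest mean. *Nars*, and genes named from counts or pairs, were chosen with their values seen. Members and lists were chosen with earlier results of these data known. Marker and pathway lists check labels and context. Arrays of the 3 sorts shared by GFP_High and GFP_Low, by a code in the titles, had residual correlations of 0.291, 0.32 and 0.451, so the sort was also fitted as a block. On simulated data with 200 of 17097 genes changed, 80% of log2 changes of 1 and 96% of 2 were recovered for GFP_Low minus GFP_High, and 66% and 96% for Villus minus GFP_High, with 3.3% and 6.9% false among calls. The measured arrays had larger shares called: 6.32% higher and 10.4% lower in GFP_Low minus GFP_High, and 22.6% and 26.3% in Villus minus GFP_High. Recovery and the percentage false with shares this large were not tested. Other alternatives covered quantile normalisation, an offset of 16, filters, probe set choice, variance prior and arrays left out. Plots used matplotlib 3.10.9 (Python 3.11.15).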

Additional observations from a re-analysis of the deposited data

Results flagged for a closer look

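In GFP_High, 1 array of *Farsb* stood apart from the other 3, with an intensity of 732.5 in GFP_High 2 against 758.3 to 762.3. The gap was 0.866 of the whole range of the group, a range that is narrow in itself. This was 1 of 32 groups of 4 tested, and chance flags about 1 in 20.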

How the results depend on the processing

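The number of arrays and their normalisation limit these results. With 1 array left out in turn, the number of synthetase genes called was 1 to 7 for GFP_Low minus GFP_High, 24 to 31 for Villus minus GFP_Low, 29 to 31 for Villus minus GFP_High, 25 to 29 for hair bulge minus GFP_High, 26 to 28 for hair bulge minus GFP_Low and 12 to 15 for hair bulge minus Villus. For GFP_Low minus GFP_High, 2 genes were called, 4 with the mean of all probe sets, 4 with only the arrays compared (*Farsb* and *Nars* joining), 1 without GFP_High 1, 1 without GFP_Low 1 and 7 without hair bulge 2, since that array adds to the shared spread. With the sort as a fixed replicate block on 6 arrays *Wars* and *Pars2* were called, as many as the 2 without it on the same arrays, and with a random block, 3. The random block changed no count in the other comparisons (28, 30, 28, 27 and 14). The fit on 6 arrays without the block, and the random block, except for hair bulge minus GFP_High, were chosen after seeing the data. The methods' t-test at an unadjusted p of 0.01 called 20 in Villus minus GFP_Low, 17 in hair bulge minus GFP_Low and 8 in hair bulge minus Villus. After adjustment it called 21, 19 and 8. In Villus minus GFP_Low its mitochondrial calls were 5 unadjusted and 6 adjusted, against 12 with limma. Over all genes, calls in GFP_Low minus GFP_High were 1080 higher and 1773 lower, 1380 and 1410 after quantile normalisation. One gene reversed with a call: *Cars2* in hair bulge minus GFP_High, 0.356 after quantile normalisation (limma adjusted p = 0.0384). Of 4480 values of single genes under alternatives, 4302 kept their side of the threshold, 136 lost the call, 41 gained it and 1 reversed. A change of sign was counted as reversed only where either fit called the gene, so the 4302 can include uncalled genes that changed sign. The cause was not tested where none is given.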
